A study of Mus musculus with 12 samples.

Results

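The genes of the proteoglycan-rich matrix made by oligodendrocyte progenitor cells (OPCs) were examined for acetylation of lysine 8 on histone H4 (H4K8ac), a mark of open and active chromatin. The 10 genes were given as a list of symbols, and their peaks were all rows of the 6 deposited peak lists that carry one of these symbols as the nearest gene. They hold 295 of the 269580 peaks and are 10 of the 23433 genes named in the lists. The lists come from chromatin immunoprecipitation and sequencing (ChIP-seq) of primary OPCs sorted from mouse forebrain, with 3 neonatal libraries (postnatal day 5) and 3 adult libraries (postnatal day 60), labelled as biological replicates. All mice, of both ages, have the genotype PdgfrαH2BEGFP, in which green fluorescent protein fused to a histone is made under the control of Pdgfra, a receptor gene of OPCs. The reporter would also label any other forebrain cell with an active Pdgfra gene. The 6 input libraries were not analysed here, and reads per library are not given in the files used.

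OPCs surround themselves with a matrix of hyaluronan, chondroitin sulfate proteoglycans and the glycoproteins that tie them together. Cspg4 encodes NG2, the transmembrane proteoglycan that defines these cells histologically and is also made by pericytes, and Cspg5 encodes neuroglycan C. Bcan, Ncan and Vcan encode the lecticans brevican, neurocan and versican, which bind hyaluronan at one end and tenascins at the other. Ptprz1 encodes a receptor tyrosine phosphatase whose secreted ectodomain is the proteoglycan phosphacan. Tnr and Tnc encode tenascin-R and tenascin-C, Hapln1 encodes a link protein that locks lecticans onto hyaluronan, and Xylt1 encodes the xylosyltransferase that adds the starting sugar of each glycosaminoglycan chain.

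Promoter sequences from RefSeq on GRCm38.p6, from 250 bases before to 50 bases after a transcription start, were found for 8 of the 10 genes; Cspg5 and Xylt1 had no entry. The members shown are examples whose start regions differ in peaks or in base composition. Ptprz1 (chr6:22875252-22875551, plus strand) and Bcan (chr3:88000307-88000606, minus strand) have CpG-rich windows. Each window carried peaks in 2 adult libraries and, of the neonatal libraries, in replicate 2 alone. The window of Bcan lies inside the gene, at a start other than the RefSeq gene start (chr3:88002175) from which distances are measured below. Ncan (chr8:70120795-70121094, minus strand) had a peak over the window in adult libraries only. Tnr (chr1:159523519-159523818, plus strand) had none in any library, and Hapln1 (chr13:89540386-89540685, plus strand) had one in a neonatal library only. Capitals mark the letters of 6 searched motifs on either strand: the E-box CAGCTG, which is its own reverse complement, the Sox motifs ACAAAG and ACAATG, which differ in 1 letter, the AP-1 motif TGAGTCA, the NFI motif TTGGCA and the GC box GGGCGG.

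Ptprz1: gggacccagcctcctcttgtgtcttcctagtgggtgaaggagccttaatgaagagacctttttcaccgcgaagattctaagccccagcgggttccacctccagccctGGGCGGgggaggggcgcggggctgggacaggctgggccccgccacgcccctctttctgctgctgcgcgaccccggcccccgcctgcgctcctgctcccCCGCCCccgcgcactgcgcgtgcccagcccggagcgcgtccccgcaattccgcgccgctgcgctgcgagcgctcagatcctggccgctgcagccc

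Bcan: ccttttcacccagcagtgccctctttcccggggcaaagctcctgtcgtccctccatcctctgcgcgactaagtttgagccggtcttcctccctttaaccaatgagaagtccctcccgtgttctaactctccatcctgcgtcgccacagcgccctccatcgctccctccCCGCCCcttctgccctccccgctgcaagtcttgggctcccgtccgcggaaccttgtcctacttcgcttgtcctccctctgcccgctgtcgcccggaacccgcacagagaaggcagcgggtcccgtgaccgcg

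Ncan: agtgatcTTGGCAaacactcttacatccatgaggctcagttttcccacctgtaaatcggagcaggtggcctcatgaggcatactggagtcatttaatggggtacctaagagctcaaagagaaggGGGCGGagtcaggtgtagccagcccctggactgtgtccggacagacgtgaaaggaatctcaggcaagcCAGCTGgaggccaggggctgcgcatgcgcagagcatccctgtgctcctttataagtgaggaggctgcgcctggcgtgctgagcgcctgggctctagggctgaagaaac

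Tnr: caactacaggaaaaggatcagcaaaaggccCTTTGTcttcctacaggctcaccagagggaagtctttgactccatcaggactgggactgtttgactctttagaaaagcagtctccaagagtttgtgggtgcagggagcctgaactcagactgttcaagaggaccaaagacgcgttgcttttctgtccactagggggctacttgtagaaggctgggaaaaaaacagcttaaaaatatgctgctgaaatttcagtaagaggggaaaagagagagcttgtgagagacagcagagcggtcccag

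Hapln1: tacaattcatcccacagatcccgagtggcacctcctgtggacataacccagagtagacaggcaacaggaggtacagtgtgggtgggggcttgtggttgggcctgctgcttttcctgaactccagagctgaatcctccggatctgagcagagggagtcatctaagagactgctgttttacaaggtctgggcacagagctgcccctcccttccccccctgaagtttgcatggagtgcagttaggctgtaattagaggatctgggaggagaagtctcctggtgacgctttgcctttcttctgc

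The windows differ widely in base composition. The one of Ptprz1 has 71.7% G or C and 29 CpG dinucleotides and the one of Bcan 64.0% and 24, against medians of 52.7% and 7 over 32851 RefSeq windows. The windows of Tnr and Hapln1 have only 3 CpG dinucleotides each. GC boxes were found in 6 of the 8 genes (Cspg4, Bcan, Ncan, Vcan, Ptprz1 and Tnc) and in 35.7% of all windows. The NFI motif was found in Cspg4, Ncan and Tnc (14.1% of all windows), CAGCTG in Ncan (16.3%) and ACAAAG in Tnr (18.7%). ACAATG (12.6%) and TGAGTCA (5.20%) were found in none of the 8. A match describes letters in these windows and nothing about binding. Peaks overlapped the window of 0, 6 and 0 of the 8 genes in neonatal replicates 1, 2 and 3, and of 4, 3 and 4 genes in adult replicates 1, 2 and 3. Over all windows the shares were 9.62%, 30.2% and 8.10% in the neonatal and 38.1%, 36.5% and 38.9% in the adult libraries.

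The lists differ greatly in length, and this touches every value below. The neonatal lists hold between 7353 and 31189 peaks and the adult lists between 72278 and 77002. Neonatal replicate 2 has the 31189 and stands apart from the other neonatal libraries, which have 9097 and 7353, so the values that rest on it are given with and without it where they move. An exact permutation test of 3 against 3 libraries cannot give a p-value under 0.1, and a gene was called only where the ages did not overlap. Because cells were pooled in each library, fewer cells carrying the mark and less of the mark per cell cannot be told apart.

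The adult over neonatal ratio of peaks was smaller at the 10 genes than over the lists as a whole, a difference that was not tested. They had 21, 67 and 13 peaks in neonatal replicates 1, 2 and 3, and 67, 60 and 67 peaks in adult replicates 1, 2 and 3. Neonatal replicate 2 had as many as the adult libraries, so the ages overlapped. Adult over neonatal, the geometric means had a ratio of 2.45 for these genes (SD of log2 values 1.22 neonatal and 0.09 adult, n = 3 each) and 5.79 for all peaks. Without neonatal replicate 2 the ratios were 3.91 and 9.04, and without neonatal replicate 3 they were 1.72 and 4.39. As a share of the list, the genes held 0.231%, 0.215% and 0.177% of neonatal peaks and 0.0927%, 0.0826% and 0.0870% of adult peaks. All neonatal shares, that of replicate 2 included, lay above all adult shares, with means of 0.207% ± 0.0278 and 0.0874% ± 0.00507 (SD, n = 3 each).

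**Figure D1:**
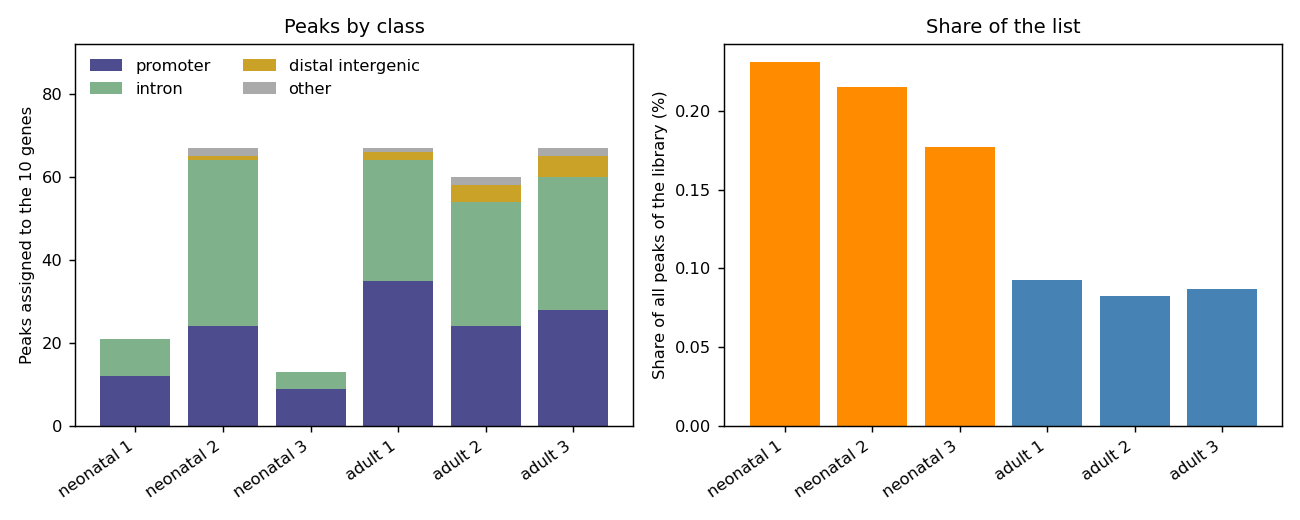
Left, peaks assigned to the 10 genes in each library (vertical axis, number of peaks), stacked by annotated class. Right, the same peaks as a share of all peaks of the library (vertical axis, percent): the neonatal libraries sit between 0.177% and 0.231% and the adult libraries between 0.0826% and 0.0927%.

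Promoter peaks, which the lists define as within 3000 bp of a start site of any annotated transcript, numbered 12, 24 and 9 in the neonatal and 35, 24 and 28 in the adult libraries. Intronic peaks numbered 9, 40 and 4 against 29, 30 and 32, so that neonatal replicate 2 had the most of any library. Distal intergenic peaks were few, with 0, 1 and 0 against 2, 4 and 5, and the adult values lay above all neonatal ones. Over the whole lists, intronic peaks were 6.67%, 15.5% and 4.64% of the neonatal and 33.5%, 33.9% and 36.1% of the adult peaks. Distal peaks were 6.63%, 14.3% and 5.37% against 18.1%, 18.6% and 18.5%. At the 10 genes the ratio of geometric means was 2.09 for promoter and 2.68 for intronic peaks. The ratio for all peaks of any class and gene was 5.79, which pools the classes and is not a like-for-like value for either. Ratios within a class over all genes were not computed. Without neonatal replicate 2 the promoter and intronic ratios at the 10 genes became 2.76 and 5.05, and without neonatal replicate 3 they became 1.69 and 1.60. Promoter peaks made up 57.1%, 35.8% and 69.2% of the neonatal and 52.2%, 40.0% and 41.8% of the adult peaks at these genes. The difference of means, adult minus neonatal, was -9.39 percentage points with overlapping libraries. It was -18.5 points without neonatal replicate 2 and -1.81 points without neonatal replicate 3. Over all peaks it was -38.1 points, without overlap, and -44.6 and -33.9 points when the same libraries were left out.

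A promoter peak was present in all 6 libraries at 4 of the 10 genes, Cspg4, Cspg5, Bcan and Xylt1, against 17.1% of all genes in the lists. With Ptprz1, 5 genes had one in all 3 neonatal libraries (18.0% of all genes). In all 3 adult libraries 7 genes had one (57.9% of all genes). None of the 10 had a promoter peak in every adult library while lacking one in the neonatal lists, a pattern of 9.60% of all genes. Ncan came closest, with a promoter peak in all adult libraries and in neonatal replicate 2. Intronic peaks were present in all 6 libraries at 2 genes, Cspg4 and Xylt1 (0.619% of all genes), in all 3 adult libraries at 4 genes (17.2%), and in all adult but no neonatal library at Tnc alone (11.2%). Distal intergenic peaks were found in all 3 adult libraries at Bcan alone (14.2% of all genes). No gene of the 10 had them in all adult and no neonatal library (7.96% of all genes).

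Length covered by peaks was compared gene by gene. It was higher in every adult than in every neonatal library for 4 of the 10 genes, Cspg4, Ncan, Tnr and Tnc (exact two-sided permutation p = 0.1 each, the lowest this design allows; adjusted p = 0.166 by Benjamini-Hochberg over all genes). This is below the 60.0% of all genes with the same order. None of the 10 had the reverse order, which 0.303% of all genes had. Without neonatal replicate 2 the count was 8 of 10, against 70.6% of all genes. In total the 10 genes were covered over 8.29, 37.7 and 4.78 kb in the neonatal and 39.0, 37.0 and 56.9 kb in the adult libraries, a ratio of geometric means of 3.80 against 10.6 for all peaks. The ratios were 6.90 and 18.3 without neonatal replicate 2, and 2.46 and 7.56 without neonatal replicate 3. Cspg4 alone made up between 53.1% and 56.7% of this length in adult libraries and between 28.3% and 36.4% in neonatal libraries. Without Cspg4 the ratio was 2.56, or 4.62 without neonatal replicate 2 and 1.71 without neonatal replicate 3.

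**Figure D2:**
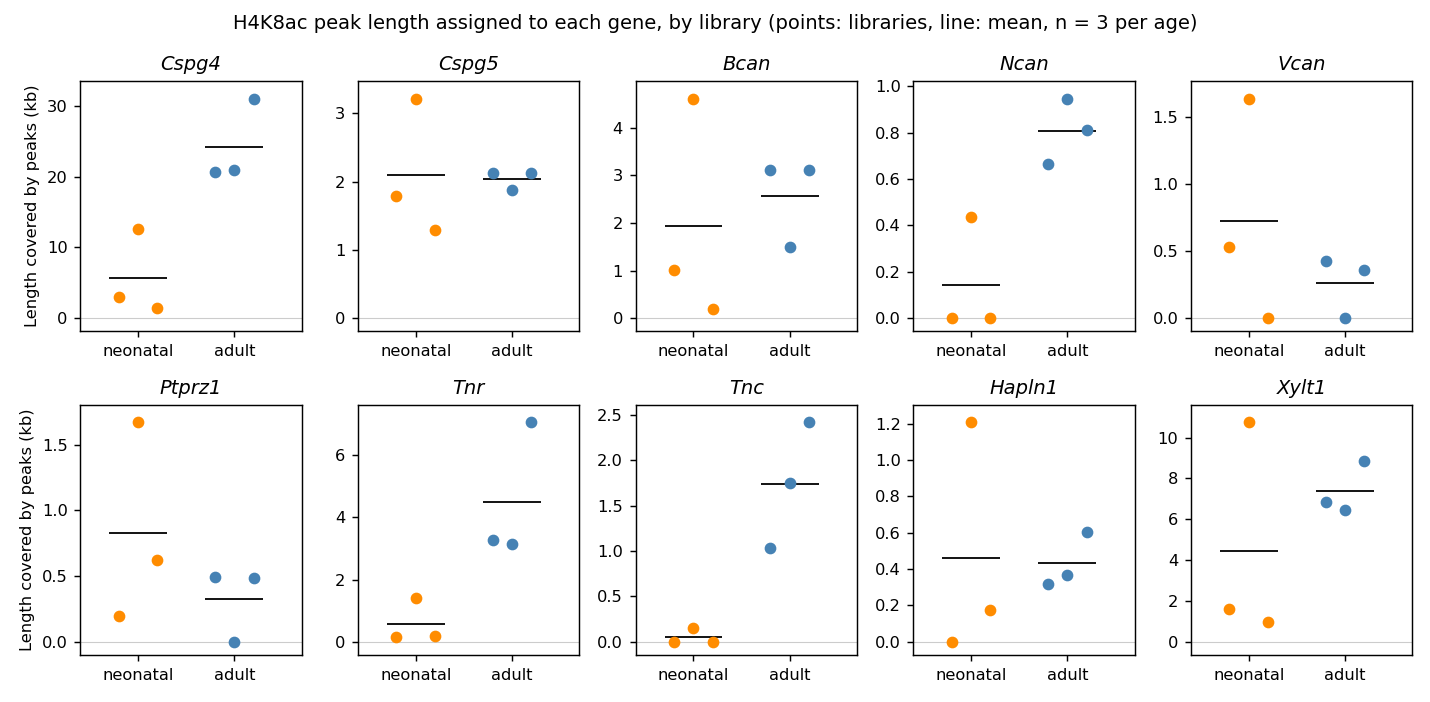
Length covered by peaks assigned to each gene (vertical axis, kb; each panel has its own scale) in neonatal (orange) and adult (blue) libraries, replicates 1 to 3 from left to right; lines are means, n = 3 per age. Cspg4, Ncan, Tnr and Tnc have all adult points above all neonatal points, and in the other panels neonatal replicate 2 lies above the adult points.

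The promoter peaks of these genes ranked higher among the peaks of the neonatal than of the adult lists. Each list was limited to its 7353 strongest peaks by the deposited p-value, the full length of neonatal replicate 3. The 10 genes then had 12, 10 and 13 peaks in neonatal replicates 1, 2 and 3, and 2, 1 and 2 peaks in adult replicates 1, 2 and 3. A promoter peak of this rank was found at 6 genes in each neonatal library, and at 1, 0 and 1 genes in the adult libraries. At 7 genes (Cspg4, Cspg5, Bcan, Vcan, Ptprz1, Hapln1 and Xylt1) more neonatal than adult libraries had one, a pattern of 15.0% of all genes, and at 0 genes the reverse held (14.1%). Bcan, Ptprz1 and Xylt1 had one in all 3 neonatal and no adult library, a pattern of 1.94% of all genes. With 3000 or 5000 peaks per list the count of 7 became 4 in each case (10.3% and 13.3% of all genes). A rank sets a peak against the others of its list and does not measure a change in the mark.

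**Figure D3:**
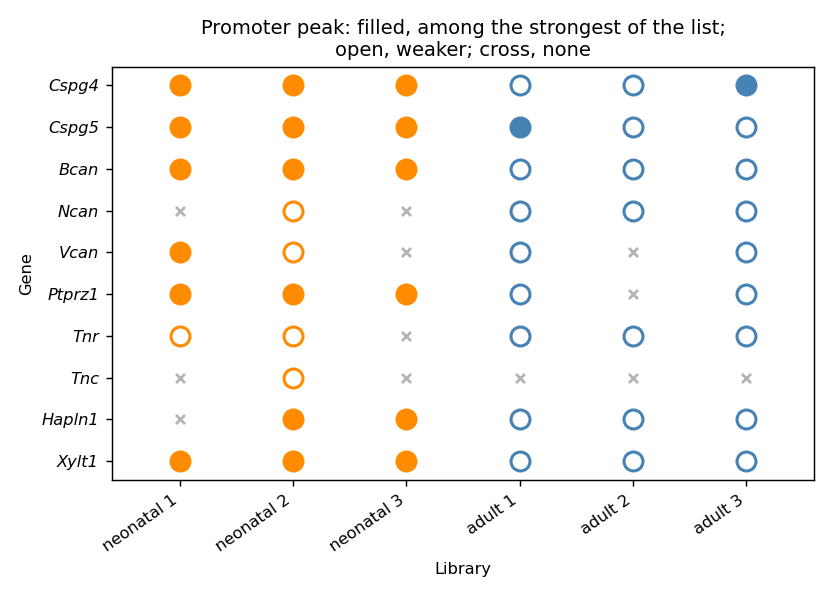
Promoter peaks of the 10 genes (rows) in the 6 libraries (columns): filled circles are genes with a promoter peak among the 7353 strongest of the list, open circles genes with weaker ones, crosses genes with none. Each neonatal column has 6 filled circles and the adult columns have 1, 0 and 1.

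Neonatal replicate 2 and the adult libraries can also be compared at one length, since the former has 31189 peaks. At that length neonatal replicate 2 had 67 peaks at these genes, and adult replicates 1, 2 and 3 had 18, 17 and 21. Its promoter peaks lay at all 10 genes, and those of the adult libraries at 4, 4 and 6. Over all genes the shares with a promoter peak at that length were 58.5% in neonatal replicate 2 and 53.3%, 50.9% and 52.6% in the adult libraries. Intronic peaks numbered 40 against 5, 5 and 9, whereas over all genes they numbered 4836 against 6728, 7061 and 7135. The covered length was 37.7 kb against 22.8, 23.0 and 39.4 kb, so adult replicate 3 covered as much with fewer and wider peaks. Over all peaks it was 13.7 Mb against 29.6, 31.4 and 44.2 Mb. The comparison rests on 1 neonatal library.

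The annotated class mixes the main start of a gene with starts of internal transcripts, so the length covered within 3000 bp of the RefSeq start of each gene was measured as well, whatever gene a peak was assigned to. Summed over the 10 genes it was 4.63, 16.6 and 3.09 kb in the neonatal and 7.38, 5.82 and 9.67 kb in the adult libraries. The adult libraries lay above neonatal replicates 1 and 3 and below replicate 2. The ratio of geometric means was 1.20, against 4.78 for the 18991 genes matched to RefSeq, and 1.97 against 7.69 without neonatal replicate 2. Without neonatal replicate 3 it fell below 1, to 0.850 against 3.59. Only Ncan was covered more in every adult than in every neonatal library, 1 of 10 genes against 56.6% of matched genes. Without neonatal replicate 2 the count was 4 of 10, against 66.7%. In the other direction, neonatal replicate 2 was covered more than every adult library at 8 of the 10 starts, all but Cspg5 and Ncan, against 9.52% of matched genes. Most of the adult length at these genes thus lay outside the start windows.

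Cspg4 (ENSMUSG00000032911, chr9:56865104-56899870, plus strand) had the greatest length covered of the 10 genes in every library. Peaks covered 3.02, 12.6 and 1.35 kb in neonatal replicates 1, 2 and 3, and 20.7, 21.0 and 31.1 kb in adult replicates 1, 2 and 3. All adult values exceeded all neonatal values, by 2.68 on the log2 scale of length plus 1 bp (exact permutation p = 0.1, the smallest possible). Peaks overlapped 8.69%, 33.8% and 3.89% of the gene body in neonatal and 59.3%, 61.2% and 71.4% in adult libraries. The 2 ages differed in where the peaks lay along the gene. Near the start, both ages had them: within 3000 bp of it 0.482, 3.69 and 0.404 kb were covered in the neonatal and 1.09, 1.61 and 2.74 kb in the adult libraries.

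Farther into Cspg4 the ages parted. Peaks starting more than 20 kb after the RefSeq start numbered 0, 0 and 0 in the neonatal libraries and 12, 10 and 8 in the adult libraries, where they covered 8.55, 7.71 and 17.5 kb. The last neonatal peak, in replicate 2, ended 18.9 kb after the start. In adult replicate 3 a peak of 9.85 kb (chr9:56896273-56906120) ran past the RefSeq end of the gene, and another of 8.04 kb (chr9:56876025-56884066) covered the middle. Most peaks in the downstream part are annotated as promoter because they lie near starts of shorter Ensembl transcripts of the gene, which is why Cspg4 has 14, 11 and 12 promoter peaks in the adult libraries and 2, 2 and 1 in the neonatal libraries.

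**Figure D4:**
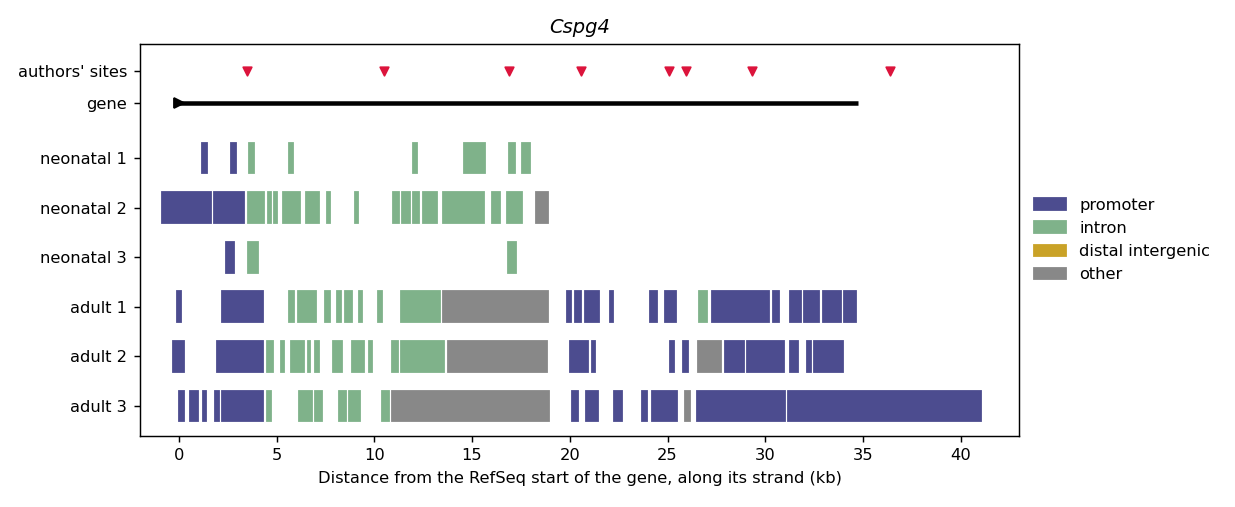
Peaks assigned to Cspg4 in the 6 libraries (rows) by distance from the RefSeq start along the strand (horizontal axis, kb), coloured by annotated class; the black line is the RefSeq gene and red triangles are the authors' differential sites. Neonatal peaks end at 18.9 kb. Adult peaks assigned to Cspg4 reach 34.6, 34.0 and 41.0 kb in replicates 1, 2 and 3, so only replicate 3 has assigned peaks past the 3′ end. The authors' site past that end, at 36.4 kb, overlaps peaks in all 3 adult libraries, which in replicates 1 and 2 are not assigned to Cspg4.

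Cspg5 (ENSMUSG00000032482, chr9:110243783-110262576, plus strand) was the gene whose coverage differed least between the ages. Peaks covered 1.79, 3.22 and 1.29 kb in neonatal and 2.12, 1.88 and 2.13 kb in adult libraries (exact permutation p = 0.9). The adult values of these assigned peaks lay inside the neonatal range. Further peaks in the gene body are assigned to Gm43622. With them, 1.96, 3.88 and 1.51 kb of the body were covered in neonatal and 3.16, 2.09 and 4.03 kb in adult libraries. By that measure adult replicate 3 lay above the neonatal range, and the ages still overlapped. A promoter peak was among the 7353 strongest in all neonatal libraries and in adult replicate 1. In neonatal replicate 2 it was the strongest peak of that list at the 10 genes, at rank 135 and with a fold enrichment of 15.8 by the authors' peak values.

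Among the lecticans, Bcan (ENSMUSG00000004892, chr3:87987531-88002175, minus strand) had promoter peaks in all libraries. Covered length was 1.00, 4.62 and 0.196 kb in neonatal and 3.11, 1.50 and 3.11 kb in adult libraries, with overlapping ages (exact permutation p = 0.4). Its distal peaks lay mainly in the adult libraries. Beyond 10 kb from its start, past the 3′ end of the gene, 2, 3 and 4 peaks lay in the adult libraries and 0, 1 and 0 in the neonatal libraries. They covered 1.05, 1.06 and 1.57 kb in adult libraries and 0.646 kb in neonatal replicate 2.

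Ncan (ENSMUSG00000002341, chr8:70093085-70120863, minus strand) had its assigned peaks only near its start. A further peak in its body, assigned to Mir7066, lay in each of adult replicates 1 and 3. Covered length was 0, 0.434 and 0 kb in neonatal and 0.664, 0.947 and 0.812 kb in adult libraries, without overlap (exact permutation p = 0.1, the smallest possible). None of its peaks ranked among the 7353 strongest. Vcan (ENSMUSG00000021614, chr13:89655309-89743027, minus strand) went the other way in its means, with 0.527, 1.64 and 0 kb in neonatal and 0.427, 0 and 0.355 kb in adult libraries. The ages overlapped (exact permutation p = 0.6). Peaks within the body of Vcan that are assigned to the neighbouring predicted genes Gm4117 and Gm16318 numbered 0, 1 and 0 in neonatal and 2, 2 and 2 in adult libraries, so that by position the sign for Vcan turned.

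Ptprz1 (ENSMUSG00000068748, chr6:22875315-23052916, plus strand) had peaks at its start only, in a gene of 178 kb. They covered 0.194, 1.67 and 0.622 kb in neonatal and 0.491, 0 and 0.485 kb in adult libraries, and adult replicate 2 had none. The ages overlapped (exact permutation p = 0.4). The best promoter peak ranked 5277 of 9097, 4997 of 31189 and 1483 of 7353 in the neonatal lists. In adult replicates 1 and 3 it ranked 50062 of 72278 and 32999 of 77002. Ranks in lists of such different length show no change between the ages.

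Tnr (ENSMUSG00000015829, chr1:159523729-159931729, plus strand), the longest of the 10 genes, had peaks near its RefSeq start in neonatal libraries only. Covered length was 0.153, 1.42 and 0.178 kb in neonatal and 3.28, 3.13 and 7.06 kb in adult libraries, without overlap (exact permutation p = 0.1, the smallest possible). Within 3000 bp of the RefSeq start, whose CpG-poor window is printed above, peaks covered 0.153, 0.401 and 0 kb in neonatal libraries and 0 kb in each adult library. Those neonatal peaks lay downstream of the printed window. More than 200 kb into the gene, 10, 8 and 14 peaks lay in the adult libraries and 0, 5 and 0 in the neonatal ones. They lay partly in an intron and partly at the start of an internal transcript. All 5 of neonatal replicate 2 lay in stretches of overlapping peaks that also held adult peaks. Many further peaks in the body of Tnr are assigned to the predicted gene Gm10530, or, in 2 adult libraries, also to Gm37731. They numbered 2, 10 and 1 in neonatal and 10, 9 and 12 in adult libraries.

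Tnc (ENSMUSG00000028364, chr4:63959785-64047015, minus strand) had the clearest split. At its start the only peak was one of 147 bp in neonatal replicate 2. In the adult libraries 3, 4 and 4 intronic peaks covered 1.03, 1.75 and 2.42 kb between chr4:64001714 and chr4:64004783, and no neonatal library had a peak there. In the lists these peaks are annotated as intronic to a transcript of another Ensembl gene (ENSMUSG00000073821), with Tnc as the nearest gene. Covered length did not overlap between ages (exact permutation p = 0.1, the smallest possible).

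**Figure D5:**
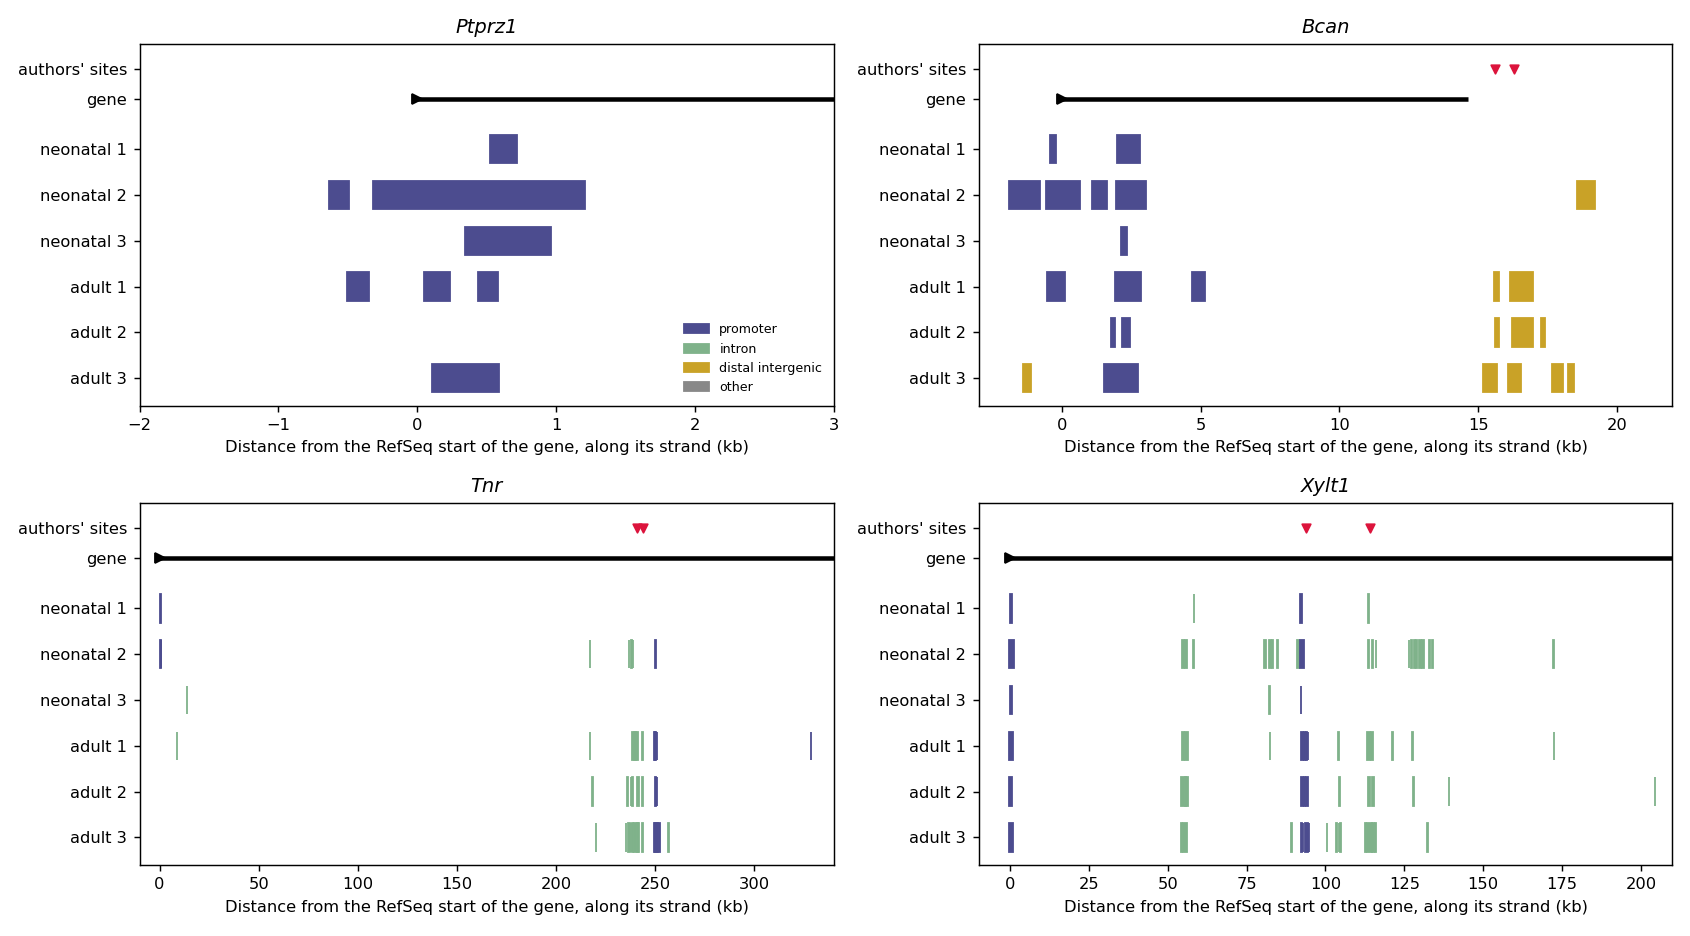
Peaks assigned to Ptprz1, Bcan, Tnr and Xylt1 in the 6 libraries (rows) by distance from the RefSeq start along the strand (horizontal axis, kb), coloured by class; black lines are the RefSeq genes, which for Ptprz1, Tnr and Xylt1 run on past the right edge, and red triangles are the authors' differential sites. Start peaks of Ptprz1 and Bcan occur at both ages, adult peaks of Bcan lie past its 3′ end, and adult peaks of Tnr lie more than 200 kb into the gene apart from one in adult replicate 1.

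Hapln1 (ENSMUSG00000021613, chr13:89540529-89611832, plus strand) had small peaks at its start. Covered length was 0, 1.21 and 0.172 kb in neonatal and 0.320, 0.368 and 0.605 kb in adult libraries (exact permutation p = 0.6). The adult values lay between those of the neonatal libraries. Its promoter peak ranked among the 7353 strongest in neonatal replicates 2 and 3 and in no adult library.

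Xylt1 (ENSMUSG00000030657, chr7:117380979-117667630, plus strand) had 22 peaks in neonatal replicate 2 and 4 and 3 in neonatal replicates 1 and 3, against 14, 13 and 17 in adult libraries. Covered length was 1.61, 10.7 and 0.975 kb against 6.82, 6.47 and 8.86 kb (exact permutation p = 0.4). All libraries had 1 peak at the RefSeq start, covering 0.628, 1.77 and 0.573 kb in neonatal and 1.34, 0.952 and 1.21 kb in adult libraries. Beyond 100 kb into the gene, neonatal replicate 2 had 12 peaks, the other neonatal libraries 1 and 0, and the adult libraries 6, 6 and 9.

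The peaks were also merged across libraries into regions, of which 104 lay at the 10 genes. Regions with a peak in some neonatal library and no adult library numbered 23, which is 22.1% of them against 5.62% of all regions. Of these 23, 14 lay at Xylt1, and 19 were peaks of neonatal replicate 2 alone. Without that library 4 of 85 regions remained neonatal only (4.71%), against 0.358% of all regions. None of them was shared by all 3 neonatal libraries. Regions in at least 1 adult and no neonatal library numbered 50 (48.1%, against 73.7% of all regions), and regions in all 3 adult and no neonatal library 12 (11.5%, against 20.4%). Regions in all 6 libraries numbered 6 (5.77%, against 4.74%), at Cspg4, Cspg5, Bcan and Xylt1.

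In the authors' deposited table of differential sites, 18 sites fell in peaks assigned to the 10 genes, and all were higher in adult cells, as were 99.4% of all listed sites. The sites higher in adult cells in the authors' deposited table are 79.6% of all sites tested, and how many were tested at these genes is unknown. The authors' deposited table listed 0 sites higher in neonatal cells at these genes, and over all genes 0.579% of the listed sites (0.463% of the sites tested) were. The 18 sites in the authors' deposited table lay at 5 genes (Cspg4, Bcan, Tnr, Tnc and Xylt1), where 65.0% of all genes had a site higher in adult cells. Cspg5, Ncan, Vcan, Ptprz1 and Hapln1 had no listed site, which does not show that they were equal at the ages. The log2 fold changes in the authors' deposited table ranged from 1.15 to 4.20 at these genes with a median of 2.09, against 2.41 for all listed sites, and 14 of the 18 lay below that median. By class they were 7 promoter, 8 intronic, 2 distal and 1 exonic sites of the authors' deposited table.

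Promoter sites of the authors' deposited table were found at 2 of the 10 genes, Cspg4 and Xylt1, against 51.0% of all genes. Among the 4 genes with a promoter peak in all 6 libraries, these were 2, whereas 83.8% of all genes with such peaks had a promoter site higher in adult cells in the authors' deposited table. At Xylt1 the promoter site of the authors' deposited table (chr7:117474740-117475139, log2 2.14, adjusted p = 0.000117) lay at an internal start 94.0 kb from the RefSeq start. For Cspg4 the authors' deposited table gave a log2 fold change of 1.20 at the site 3.48 kb after the start (chr9:56868387-56868786). Near the 3′ end the authors' deposited table gave 3.28 inside the gene (chr9:56894225-56894624) and 3.61 past its RefSeq end (chr9:56901306-56901705). The latter site overlapped peaks in all 3 adult libraries, which in adult replicates 1 and 2 were not assigned to Cspg4. The largest value at these genes in the authors' deposited table was 4.20 at Tnc (chr4:64004154-64004553, adjusted p = 2.87e-06). The distal sites of Bcan in the authors' deposited table had log2 fold changes of 1.83 and 2.28, and the intronic sites of Tnr 1.15 and 1.47.

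When sites were taken by position in the gene body instead of by the assigned gene, 24 of 25 sites in the authors' deposited table were higher in adult cells. The exception was in the body of Tnr (chr1:159662837-159663236, assigned to Gm10530), with a log2 fold change of -1.59 in the authors' deposited table (adjusted p = 0.00777). It overlapped peaks in 2 neonatal libraries and 1 adult library. Ncan and Vcan each gained 1 site in this way, with log2 fold changes of 3.37 (assigned to Mir7066) and 3.22 (assigned to Gm16318) in the authors' deposited table.

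Other genes of the same matrix pathways were taken from 5 lists of 71 genes, of which 67 occur in the peak lists. Covered length was higher in every adult than in every neonatal library for 38 (56.7% of the 67, near the 60.0% of all genes) and the reverse for 0. A promoter site was found for 36 of these genes in the authors' deposited table, 35 with the strongest one higher in adult and 1 in neonatal cells, and the median log2 fold change was 1.56 against 1.77 for all genes with one. Chondroitin sulfate synthesis enzymes had such a site higher in adult cells at 15 of 21 genes, with a median of 1.21 in the authors' deposited table. Receptors of these proteoglycans had one at 6 of 8 genes (median 2.24), matrix proteases at 6 of 17 (median 2.28), lectican partners at 5 of 13 (median 1.88) and heparan sulfate proteoglycans at 3 of 12, by the authors' deposited table. Over all genes the share with such a promoter site in the authors' deposited table was 51.0%.

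By the strongest promoter site of each gene, the highest values in the authors' deposited table among the related genes were 5.94 at Hapln2, the link protein of nodes of Ranvier, 4.96 at Ptprd and 4.86 at Ptprf, phosphatases of the family that binds chondroitin sulfate, and 3.99 at Adamts1 and 2.88 at Adamts4, proteases that cut lecticans. Hapln2 was covered over 0.251, 0.815 and 0 kb in neonatal and 5.72, 6.94 and 4.96 kb in adult libraries, without overlap. The lowest values for such strongest promoter sites in the authors' deposited table were 0.98 at Chst14, 1.08 at Fam20b, 1.09 at Dse, 1.10 at Hyal2 and -1.27 at Sdc3, the syndecan with the only promoter site higher in neonatal cells. Sdc3 was covered over 1.23, 6.38 and 1.64 kb in neonatal and 0.831, 1.14 and 1.44 kb in adult libraries. Cd44, a hyaluronan receptor, and Chst13, a chondroitin sulfotransferase, had promoter peaks in all adult and no neonatal library.

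The 6 genes listed as OPC markers (Pdgfra, Olig1, Olig2, Sox10, Lhfpl3 and Gpr17) were marked at both ages. Promoter peaks lay at 6, 6 and 5 of them in neonatal and 5, 6 and 4 in adult libraries. Whether these genes mark OPCs alone, and not other cells of the oligodendrocyte lineage, was not tested. The summed length they covered was 7.36, 19.3 and 2.70 kb in neonatal and 44.8, 49.7 and 56.7 kb in adult libraries, without overlap. Taken singly, 4 of the 6 had this order (Olig1, Olig2, Sox10 and Gpr17), and Lhfpl3 and Pdgfra overlapped. Pdgfra, the reporter gene, had 1.64, 6.12 and 0.513 kb in neonatal and 1.59, 1.21 and 2.12 kb in adult libraries. By the authors' deposited table, promoter sites favoured adult cells at 3 of these genes and neonatal cells at Pdgfra alone (log2 fold change -1.23). Of 5 mature oligodendrocyte markers (Mbp, Mog, Mag, Mobp and Cldn11), 1, 2 and 1 had a promoter peak in neonatal and 5, 5 and 5 in adult libraries. Over all 23433 genes, 6383, 13700 and 5629 had one in neonatal and 15511, 15117 and 15488 in adult libraries. The summed covered length of these markers ranged from 0.435 to 7.22 kb in neonatal and from 78.1 to 98.6 kb in adult libraries. Among all genes, 60.0% had covered length higher in every adult than in every neonatal library. Mog, Mag and Mobp had no promoter peak in any neonatal library. Their part in the results above was not tested. Pericytes also make NG2, and their 6 markers had promoter peaks at 0, 3 and 0 genes in neonatal and at 0, 0 and 0 genes in adult libraries. The length covered at these markers was 0.205, 2.24 and 0 kb in neonatal and 0.194, 0 and 0.225 kb in adult libraries. For the other types of 6 markers each, promoter peaks in neonatal against adult replicates were 2, 4 and 0 against 3, 2 and 4 for astrocytes and 0, 4 and 1 against 5, 3 and 3 for neurons. Summed covered length did not overlap in either. Its medians were 0.711 kb in neonatal and 12.9 kb in adult libraries for astrocytes, and 0.192 kb and 8.11 kb for neurons. Taken singly, 2 of the 6 astrocyte and 3 of the 6 neuron markers had this order. Slc1a3 held most of the adult astrocyte length (9.05, 10.1 and 15.9 kb), and Rbfox3 and Tubb3 most of the neuron length. Gfap, Gja1, Syt1 and Gad1 were covered most in neonatal replicate 2, and Snap25 had no peak. Promoter peaks were 0, 0 and 0 against 1, 1 and 1 for microglia (Cx3cr1). They were 0, 0 and 0 against 2, 2 and 2 for endothelium. For fibroblasts they were 0, 2 and 0 against 2, 3 and 2.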

How the data were processed

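H4K8ac ChIP-seq peaks of 3 neonatal and 3 adult libraries of sorted OPCs were analysed as deposited. Per the file headers, each deposited list gives a position, a score, a fold enrichment (a linear ratio), −log10 of the p-value and q-value, and the class, nearest gene and distance to a start site; the deposited q-values reach 0.0427 to 0.0489, so each list was limited at about 0.05. Per the submitters' processing notes, the build is GRCm38 and the tools include Trim Galore, Bowtie2 2.4.5, SAMtools, deepTools, MACS2, DiffBind and ChIPseeker; their settings, and whether inputs were used, are not given in the sources used here. A separate table deposited by the authors gives for each differential site its log2 fold change with raw and adjusted p-values (limited at 0.05), without values per library. It names no direction: 99.99% of its positive sites overlap an adult peak and 27.9% a neonatal peak, and of its negative sites 37.0% and 98.4%, so positive was read as higher in adult. Its p-values imply 54838 tested sites.

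The 10 genes and all lists of related genes and markers were chosen with earlier results of these data known. All 10 genes are named. Of the related genes, the text names those with the 5 highest and 5 lowest strongest promoter sites, those with a site below 0 and those with promoter peaks in every library of an age and in no library of the other age. Each site took its class and gene from the overlapping peak (at least 1 bp) with the largest overlap. Covered length was compared on log2(bp + 1) with a two-sided exact permutation test (20 arrangements of 3 against 3 libraries), for all 23433 genes, with Benjamini-Hochberg adjustment, using Python 3.11.15, numpy 2.4.6 and pandas 2.3.3. The code was tested on simulated data. Peak strengths were used only to rank peaks within a list. Start windows, the comparison of strongest promoter peaks and that at 31189 peaks were chosen after seeing the data. Alternatives were stricter q-values, merged peaks, genes by position, equal list lengths and each library left out. Reads per library are unknown, so no counting error is given. How depth and antibody efficiency bear on the number of peaks was not tested. One gene of the mature oligodendrocyte list is not reported here, and that list's values are over its other 5 genes.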

Additional observations from a re-analysis of the deposited data

How the results depend on the processing

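With the 7353 strongest peaks of each list, the log2 ratio of peaks at the 10 genes reversed to -2.87, the log2 ratio of covered length was 0.18 and the promoter share differed by -38.1 percentage points. The counts of genes with more covered length in every adult library and of genes with intronic peaks in adult libraries alone both became 0, and regions in all libraries, in all adult and in all neonatal libraries alone numbered 1, 0 and 4. This setting takes the same number of peaks from lists of very different length. On the log2(bp + 1) scale it also reversed Cspg5 (-7.01), Bcan (-9.23), Tnr (-2.49), Hapln1 (-5.48) and Xylt1 (-10.7). Taking genes by position gave Vcan 3.53, 2 genes with adult-only intronic peaks, 1 with adult-only distal peaks and 1 site higher in neonatal cells. Merging peaks within 1000 bp turned Cspg5 to -0.24. An adjusted p-value limit of 0.005 left 9 of the 18 sites. Requiring 50% of a region to be covered left 0 regions in all libraries. With the strongest 3000 or 5000 peaks, 4 genes had a promoter peak in more neonatal than adult libraries. The cause of these changes was not tested.

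Leaving out 1 library at a time gave 4 to 8 genes with more covered length in every adult library, 0 to 1 with adult-only promoter peaks, 0 to 1 with adult-only distal peaks and 1 to 4 with more covered start windows in every adult library, each highest without neonatal replicate 2. The promoter share differed by -18.5 to -1.81 percentage points. Regions in all libraries ranged from 6 to 10 and in all neonatal libraries alone from 0 to 3, highest without neonatal replicate 3. Vcan ranged from -4.12 to 2.03 and turned to 0.40, 1.22 and 2.03 without neonatal replicates 1 and 2 and adult replicate 2. Hapln1 ranged from -0.14 (without neonatal replicate 1) to 4.98 and Cspg5 from -0.23 (without neonatal replicate 3) to 0.43. Over all alternatives, 88 of 110 single-gene values kept their direction and call and 12 reversed; counted separately, a call was gained 10 times, in either direction, and lost 4 times. Stricter q-values turned no direction among these results.

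Replicate numbers did not pair the samples: deviations of same-numbered libraries across genes correlated at -0.0378, 0.0254 and 0.0697. With the replicate block, an exact sign-flip test whose smallest p is 0.25, 4 genes had more covered length in the adult library of every pair, and the log2 ratios stayed at 1.29 for peaks and 1.93 for covered length, with -9.39 percentage points for the promoter share. Unknown depth limits any statement on a missing peak.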
